A study of Mus musculus with 8 samples.

Results

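The exon sites described here were the CCGG sites that lay in an annotated exon, outside any annotated promoter and outside CpG islands, on the autosomes. They were taken from reduced representation hydroxymethylation profiling (RRHP) of adult oligodendrocyte progenitor cells (aOPC) and adult oligodendrocytes (aOL), with the gene features that the authors wrote beside each site. Of 1401178 autosomal sites listed in any of the 4 RRHP libraries, 82157 (5.86%) met the rule, and they named 13218 genes. Both populations were sorted by fluorescence from brains of C57BL/6 mice at postnatal day 60, aOPC from Pdgfra-H2BEGFP reporter mice, in which the Pdgfra locus drives a nuclear EGFP, and aOL from Plp-EGFP reporter mice, in which the promoter of a myelin gene drives EGFP. DNA and RNA came from one cell pellet, and each population had 2 RRHP libraries and 2 RNA-seq libraries, numbered replicates 2 and 3. A replicate 1 of either population was not analysed here. The titles of the aOL RNA libraries call the cells pre-myelinating and the protocol calls them myelinating, so their stage is uncertain. For the aOL RRHP libraries the titles set the group, because their tissue entry gives the Pdgfra line, and nothing in the labels says how many animals a library pooled. The reporter line differs between the populations in every library, so line and population cannot be told apart.

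5-hydroxymethylcytosine (5hmC) is made from 5-methylcytosine by the TET enzymes, and in brain it is abundant in the bodies of transcribed genes. Exons are the parts of a gene that are kept in the mature transcript, and they are richer in G and C than the introns between them. RRHP adds a glucose to 5hmC, which keeps the enzyme MspI from cutting that CCGG. A protected site retains its adapter and gives reads, counted separately for each strand. A read also needs a fragment of suitable length between that site and the next CCGG, so counts carry a fragment length component next to the mark. Levels are given as CPM, the count at one site and strand scaled to the total of its library.

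The following 30-base windows show sites that were read strongly in all 4 libraries, sites among the largest differences between the populations and, in Nosip, a smaller difference on a fragment of 40 to 300 bp. Each is written from 5′ to 3′ on the strand that was counted, with the CCGG in capitals, and was read from the GRCm38 reference genome at coding exons.
Cryab, chr9:50756320-50756349, minus strand: catcggctgggatCCGGtacttcctgtgga
Pde4b, chr4:102605021-102605050, plus strand: agacctggttcaaCCGGatgctcaagatat
Flrt3, chr2:140660721-140660750, plus strand: acattgaccttcaCCGGtagcgactgtaac
Nrm, chr17:35863562-35863591, plus strand: aggcgtggacatcCCGGtactttggcgtcc
Col11a1, chr3:114066405-114066434, minus strand: cactgattgcgacCCGGtgccacctgtaaa
Haus8, chr8:71263069-71263098, minus strand: gagtggtggagtcCCGGtatctgcaatatg
Ubr4, chr4:139390831-139390860, plus strand: acttcccagttccCCGGaaccagcttcagt
Nosip, chr7:45077306-45077335, minus strand: ggagcccgcaaagCCGGtgccgccctagag
The first 3 and Nosip were chosen after their values were seen, the others by their rank among the called sites. The site in Cryab, which encodes a small heat shock protein, was read 135 and 320 times in aOPC (replicates 2 and 3) and 277 and 461 times in aOL, or 18.8 CPM ± 0.204 (SD, n = 2) in aOPC and 17.2 CPM ± 0.253 (n = 2) in aOL. Pde4b, a phosphodiesterase that breaks down cyclic AMP, had 200, 401, 375 and 542 counts at its site in the same order (25.8 CPM ± 3.32 and 21.8 CPM ± 2.49). The site in Flrt3, a membrane adhesion protein, had 134, 279, 254 and 445 counts (17.6 CPM ± 1.80 and 16.2 CPM ± 0.350). None of the 3 passed the test between populations (edgeR, adjusted p from 0.726 to 0.852). The other sites in the list are described with the differences.

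The 2 aOPC libraries summed to 7113237 and 17121440 RRHP counts and the 2 aOL libraries to 15923775 and 27057859, so aOPC replicate 2 was the shallowest library and gave the least precise counts. A count of 0 in a library allows up to 3 counts, which is 0.422 CPM in aOPC replicate 2 and 0.111 to 0.188 CPM in the other 3 libraries. These limits and all intervals cover counting error only. RNA was checked against cell markers. Pdgfra stood at 7.54 and 5.47 (log2) in aOPC and at 4.98 and 1.63 in aOL, but of the 11 progenitor markers only 5 were lower in both aOL libraries than in both aOPC libraries and 1 was higher. Their medians were 8.63 and 6.43 in aOPC against 6.39 and 6.83 in aOL, so that the populations overlapped. The myelin gene Mog was high in all 4 libraries (17.6 and 17.8 in aOPC, 16.9 and 17.2 in aOL). Of 9 oligodendrocyte markers, 3 were higher in both aOL libraries than in both aOPC libraries and 3 were lower. The neuron markers had medians of 7.27 and 5.16 in aOPC against 5.44 and 4.86 in aOL, and those of the microglia markers 8.32 and 7.67 against 7.60 and 7.20. Astrocyte markers had medians of 10.1 and 9.28 in aOPC against 8.74 and 9.12 in aOL. Endothelial and mural markers, of which 2 of 8 were listed, went the other way, with medians of 2.65 and 4.45 in aOPC against 5.96 and 8.44 in aOL. The part of these other cell types in the results below was not tested. Fewer cells of a type and less RNA per cell cannot be told apart in such bulk samples.

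Annotation by GENCODE placed 63824 exon sites (77.7%) in coding sequence, 15081 (18.4%) in 3′ UTRs, 778 in 5′ UTRs and 1612 in exons of noncoding transcripts. The other 862 sites, 315 in introns and 547 between genes, were exonic only in the authors' annotation. Exon sites were spread thinly over genes, with a median of 4 sites per gene and 2510 genes with 1 site. Ttn, the giant protein of the sarcomere, had the most with 165 sites. Among the genes that followed were Mll2, a histone methyltransferase, and Tnrc18 (each with 97), the presynaptic scaffold Bsn with 91 and the basement membrane proteoglycan Hspg2 with 83.

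Exon sites carried between 8.04% and 8.94% of the counts of a library. The share was 8.04% (Wilson 95% interval 8.02 to 8.06%) and 8.77% (8.75 to 8.78%) in aOPC and 8.94% (8.93 to 8.96%) and 8.68% (8.67 to 8.69%) in aOL. The populations overlapped, because aOPC replicate 3 exceeded aOL replicate 3. The mean level per exon site was 0.978 and 1.07 CPM in aOPC and 1.09 and 1.06 CPM in aOL. It was 1.05 times as high in aOL as in aOPC, a difference within the spread of the libraries (two-sided exact permutation test over 2 against 2 libraries, p = 0.667; the smallest p this design allows is 0.333). At least 1 read was found at 73.1% and 81.3% of the exon sites in aOPC and at 84.0% and 89.7% in aOL, an order that followed library depth within each population, and 54551 sites (66.4%) had reads in all 4 libraries.

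Exon sites were read more than intron and intergenic sites in every library. Intron sites outside promoters and islands had a mean of 0.812 and 0.922 CPM in aOPC and 0.942 and 0.886 CPM in aOL, and intergenic sites had 0.649 to 0.673 CPM. The ratio of exon to intron sites was thus 1.20, 1.16, 1.16 and 1.19, and that of exon to intergenic sites 1.45, 1.61, 1.68 and 1.58, in the order aOPC replicates 2 and 3 and aOL replicates 2 and 3. A two-sided exact sign-flip test over the 4 libraries gave p = 0.125 for both, the smallest it can give.

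The exon to intron ratio moved with fragment length. Exon sites lay closer to the next CCGG, with a median distance of 173 bp against 258 bp at intron sites. Among sites with a distance of 40 to 300 bp, 49980 of the exon sites, the mean level was 1.41 and 1.57 CPM in aOPC and 1.53 and 1.49 CPM in aOL at exons. Intron sites of that range had 1.41, 1.63, 1.56 and 1.48 CPM, so the ratio fell to between 0.965 and 1.01 (exact p = 0.5). Weighting intron sites to the fragment lengths of the exon sites left 0.947 to 0.994. When GC content within 100 bp was matched as well, the ratio was 1.12 in both aOPC libraries and 1.15 and 1.16 in aOL (exact p = 0.125). Against intergenic sites exons remained higher in every library under each of these settings, with 1.42 to 1.67 when both properties were matched.

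**Figure D1:**
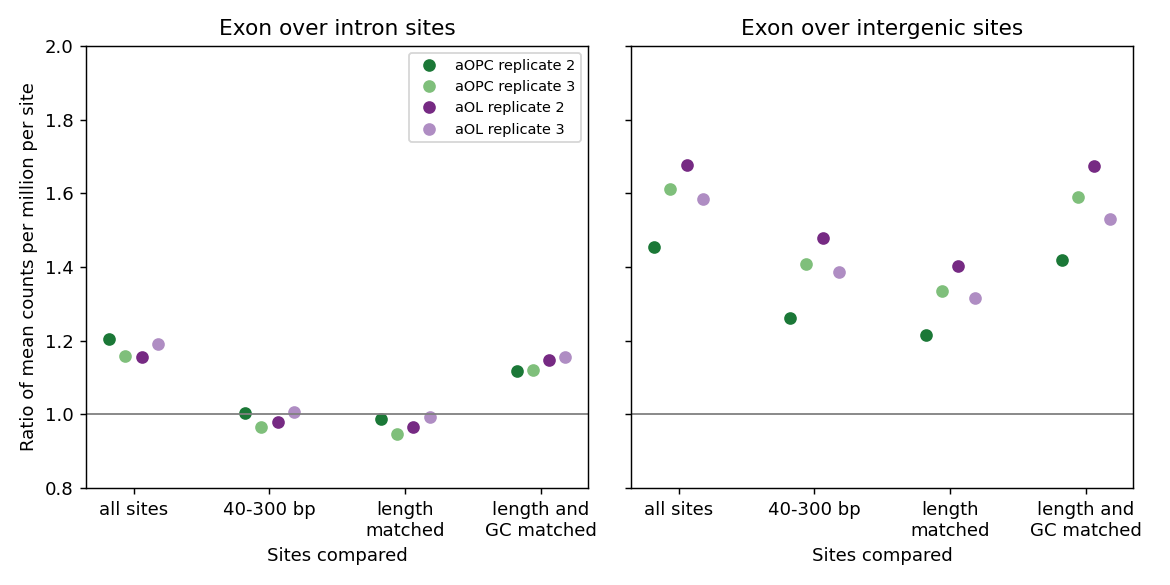
Ratio of the mean CPM per site at exon sites to that at intron sites (left) and intergenic sites (right), 1 point per library, over all listed sites, over sites 40 to 300 bp from the next CCGG, and after matching the other class to the exon sites on fragment length, or on fragment length and GC content. The ratio to intron sites lies near 1 without GC matching in the range of 40 to 300 bp and between 1.12 and 1.16 with it, and the ratio to intergenic sites stays above 1.2.

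Within genes, compared without matching GC content, exon sites were the lower ones. In 2705 genes with at least 5 exon and 5 intron sites in the range of 40 to 300 bp, exon sites exceeded the intron sites of their own gene in 41.1% and 38.0% of genes in aOPC and in 40% and 42.3% in aOL. The median log2 difference of exon minus intron was -0.18, -0.21, -0.19 and -0.14 (two-sided exact sign-flip test, p = 0.125, the smallest possible). Exon and intron levels of a gene were only loosely related, with a Spearman correlation across these genes between 0.234 and 0.315.

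Sequence context graded the exon level. Exon sites of 40 to 300 bp with at most 45% GC around them had 1.97, 2.35, 2.29 and 2.16 CPM, and those over 65% GC had 1.01, 0.982, 1.003 and 1.08 CPM. The ratio of the former to the latter was 1.96 to 2.40 over the libraries. Intron sites fell more steeply, to between 0.403 and 0.695 CPM over 65% GC. Exon and intron sites were nearly level at up to 45% GC and furthest apart above 60%. In between, exon sites also stood higher, with 1.78, 2.07, 2.01 and 1.90 CPM against 1.43, 1.73, 1.67 and 1.54 CPM at 45 to 50% GC. Number of CpGs sorted the sites in the same way. Exon sites with more than 8 CpGs in 200 bp had 1.26 to 1.33 CPM, intron sites 0.615 to 0.754 CPM. Base composition also affects amplification, and its part in these levels was not tested.

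Position in the exon mattered less. Sites within 20 bp of an exon edge had 1.58, 1.76, 1.70 and 1.62 CPM, against 1.32, 1.48, 1.43 and 1.41 CPM at 50 to 100 bp from it, a ratio of 1.15 to 1.20. Sites in 3′ UTRs were 1.08 to 1.12 times as high as coding sites. The strand of the gene made little difference, since sites on the sense strand had 0.973 to 0.980 times the level of antisense sites in the 4 libraries. Each of these 3 ratios had the same direction in every library (exact sign-flip p = 0.125). The strands of one CCGG were read with partial similarity. Over 8697 exon CCGGs with both strands listed in the range of 40 to 300 bp, their levels had Spearman correlations of 0.244 and 0.365 in aOPC and of 0.416 and 0.254 in aOL.

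The genes with the highest exon level were a mixed group. Among genes with at least 5 exon sites, Rn45s, the ribosomal RNA precursor, had 23.6 CPM ± 8.05 per site in aOPC and 32.9 CPM ± 10.3 in aOL. This gene is present in many copies that the reference holds once, so its counts sum over copies. Its 34 sites took 1.24% and 0.696% of all exon counts in aOPC and 0.974% and 1.57% in aOL. Trim3, a ubiquitin ligase, followed with 9.52 CPM ± 0.766 and 7.47 CPM ± 0.941, and Adnp, a homeobox transcription factor, with 8.57 CPM ± 1.44 and 7.54 CPM ± 0.400. Sft2d2, a vesicle transport protein, had 8.46 CPM ± 2.50 and 6.69 CPM ± 1.14, and Lrba, a BEACH domain protein, 7.08 CPM ± 0.726 and 6.82 CPM ± 0.287. Appbp2, Zfp770, Cebpz, Ddc and Zyx completed the first 10, at 5.14 to 5.98 CPM over the 4 libraries. The populations were close to each other in Lrba and Zyx, and no exon sum of these 10 genes was called between them.

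Among the genes with the most sites, Ttn had 0.662 CPM ± 0.108 per site in aOPC and 0.584 CPM ± 0.0985 in aOL, and Bsn 0.876 ± 0.000563 and 0.912 ± 0.0178. Lrp1, a lipoprotein receptor, and Spen, a nuclear corepressor, stood higher, with 1.51 ± 0.0924 and 1.55 ± 0.207 CPM in aOPC and 1.60 ± 0.0258 and 1.71 ± 0.0211 CPM in aOL. The exon sums of Ttn, Bsn, Lrp1, Spen, Mll2 and Bahcc1 were not called between the populations. Ttn and Bsn were at less than the mean exon level of the same library in all 4 libraries, and Lrp1 and Spen above it.

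Gene lists were compared over genes with at least 3 exon sites in the range of 40 to 300 bp, of which there were 6077 with a median level of 1.27 CPM over the 4 libraries. Oligodendrocyte progenitor genes had a median of 2.13 CPM, and 5 of the 7 measured members were above the median of all genes. Cspg4, the NG2 proteoglycan, had 2.19, 2.45, 2.22 and 2.17 CPM, and Pdgfra, the growth factor receptor of these cells, had 1.50, 2.43, 2.62 and 2.34 CPM. Neither differed between the populations beyond the spread of the aOPC libraries. Sox6, a transcription factor, did not overlap, with 1.63 and 2.02 CPM in aOPC against 2.50 and 2.33 CPM in aOL, and 1 member on chromosome 18, counted and not named, did not overlap in the other direction. Neither exon sum was called. The share of all genes that separate in this way is not given here. As the smallest exact permutation p of 2 libraries against 2 is 0.333, nothing is read from either order. Myelin genes were split, with a median of 1.87 CPM and 4 of 7 members above that of all genes. Mag, an adhesion protein of the inner myelin layer, had 2.39 and 2.65 CPM in aOPC and 2.84 and 2.78 CPM in aOL, whereas Mog, a protein of the outer layer, had 1.73 and 0.526 CPM against 0.921 and 0.801 CPM and Bcas1 0.562, 0.496, 0.408 and 0.569 CPM. Lineage transcription factors ranged from 0.349 CPM in Sox8 to 3.43 CPM in Tcf7l2, an effector of Wnt signalling.

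The list of genes that write or read cytosine modifications had a median of 1.68 CPM, with 7 of 9 above the median of all genes. It also holds the metabolic gene Idh2, at 1.08 CPM. Tet1 had 1.62, 2.73, 2.82 and 2.45 CPM in its exons, Tet3 1.52, 2.02, 2.09 and 1.91 CPM and Dnmt3a, a de novo methyltransferase, 1.76, 2.37, 2.09 and 2.07 CPM. In each of these 3 genes aOPC replicate 2 was the lowest library, whereas in Tet2 (1.71, 1.96, 1.58 and 1.48 CPM) it was not and in Dnmt1, the maintenance methyltransferase, it was the highest (1.79, 1.47, 1.29 and 1.38 CPM). Large cytoskeletal genes had a median of 1.33 CPM, with Sptbn1, a spectrin, at 3.65 CPM and Plec, a linker of filaments, at 1.06 CPM. Collagens had 1.06 CPM, and 16 of 40 were above the median of all genes. Genes of zinc finger proteins named Zfp had 1.57 CPM and 76 of 112 above, and solute carriers 1.26 CPM and 61 of 124.

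Genes of other brain cells mostly had low exon levels. Microglia genes had a median of 0.651 CPM in 6 genes. Csf1r, the receptor microglia need to survive, had 0.478, 0.432, 0.502 and 0.429 CPM, and Tmem119 had 0.562, 0.573, 0.571 and 0.662 CPM, so that the libraries of both populations nearly coincided. Itgam was the exception of this list, at 2.60 CPM. The medians were 0.962 CPM in 4 endothelial and mural genes and 1.04 CPM in 4 astrocyte genes, where Gja1, a gap junction protein, had 0.209 CPM and Slc1a3, a glutamate transporter, 3.25 CPM. The 2 neuron genes measured had a median of 1.07 CPM, with Gad1, which makes GABA, at 1.67 CPM. No gene of the progenitor, myelin, lineage, cytosine modification, collagen or other cell type lists was called between the populations in its exon sum. Of 28 tested sums in the cytoskeletal list 1, that of Map2, was lower in aOL, of 227 solute carriers 1 was higher and 1 lower, and of 188 Zfp genes 1 was lower. Over all sums of a gene in one class of sites 0.192% were higher and 0.408% lower, and nothing is read from a single call in a list.

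**Figure D2:**
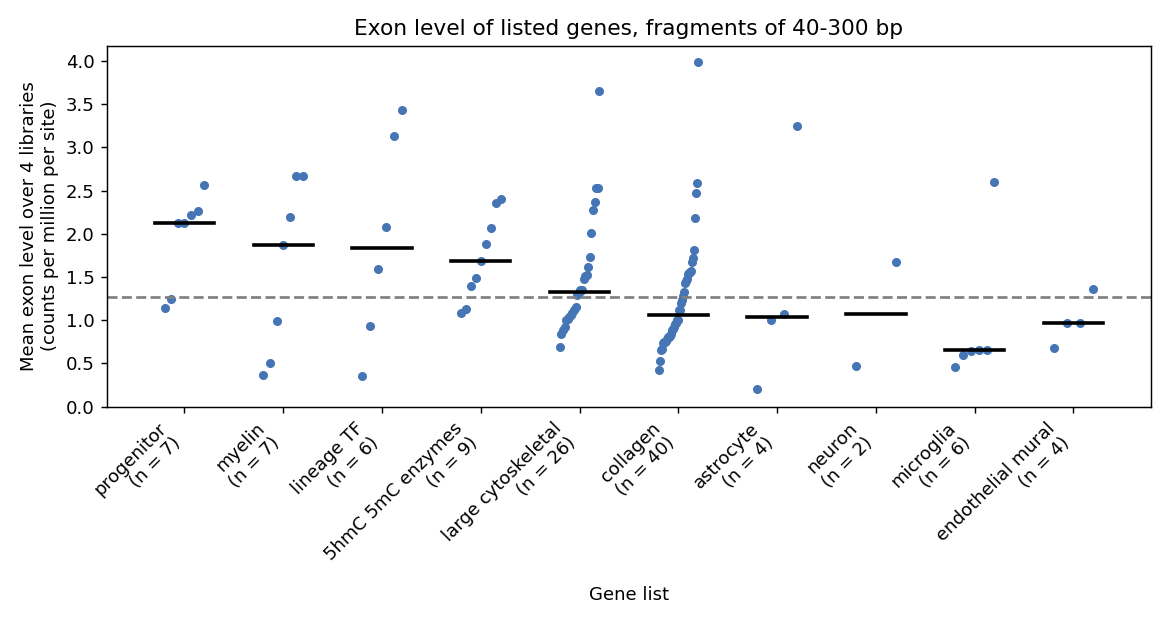
Mean exon level over the 4 libraries, in CPM per site, of each gene with at least 3 exon sites 40 to 300 bp from the next CCGG (points), by gene list, with the list median (bar) and the median of all 6077 such genes (dashed line, 1.27). Progenitor, myelin, lineage and cytosine modification lists have medians above the line, and 5 of the 6 microglia genes lie at less than 0.7.

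The relation of exon level to RNA level asked whether genes with more RNA carried more reads at their exons. RNA values were available for 8262 of the 13218 genes, 8102 by symbol and 160 by an older symbol. Over all listed exon sites the relation was weak, with a Spearman correlation across genes of 0.0413 in aOPC and 0.0605 in aOL (n = 8262 genes, which share libraries and are not independent). Genes in the highest quintile of RNA had 1.11, 1.22, 1.22 and 1.16 times the median exon level of the lowest quintile in the 4 libraries (mean log2 ratio 0.23 ± 0.07, SD; exact sign-flip p = 0.125). Restricting to sites 40 to 300 bp from the next CCGG raised the correlation to 0.154 in aOPC and 0.167 in aOL over 6523 genes, and requiring 5 such sites per gene raised it to 0.234 and 0.226 over 2507 genes. The relation was not particular to a population's own RNA. Over the 6523 genes, exon levels of aOPC replicate 3 had a correlation of 0.161 with the RNA of the same replicate and of 0.177 with that of either aOL library, and those of aOL replicate 2 had 0.174 with their own and 0.164 and 0.153 with aOPC RNA.

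In that range the exon level rose over each step of RNA. In aOPC replicate 2 the median went from 1.03 CPM in the lowest quintile through 1.14, 1.27 and 1.29 to 1.41 CPM in the highest, and in aOPC replicate 3 from 1.19 through 1.37, 1.49 and 1.54 to 1.79 CPM. The aOL medians went from 1.16 to 1.71 CPM in replicate 2 and from 1.18 to 1.64 CPM in replicate 3. The highest quintile was 1.36, 1.51, 1.48 and 1.39 times the lowest (exact p = 0.125, the smallest possible). Genes without an RNA value lay below both, with medians of 0.914, 0.993, 0.973 and 0.998 CPM. Intron sites of the same range gave correlations of 0.133 and 0.149 and a ratio of 1.26 to 1.34 between the quintiles, in the same direction and smaller than at exons.

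**Figure D3:**
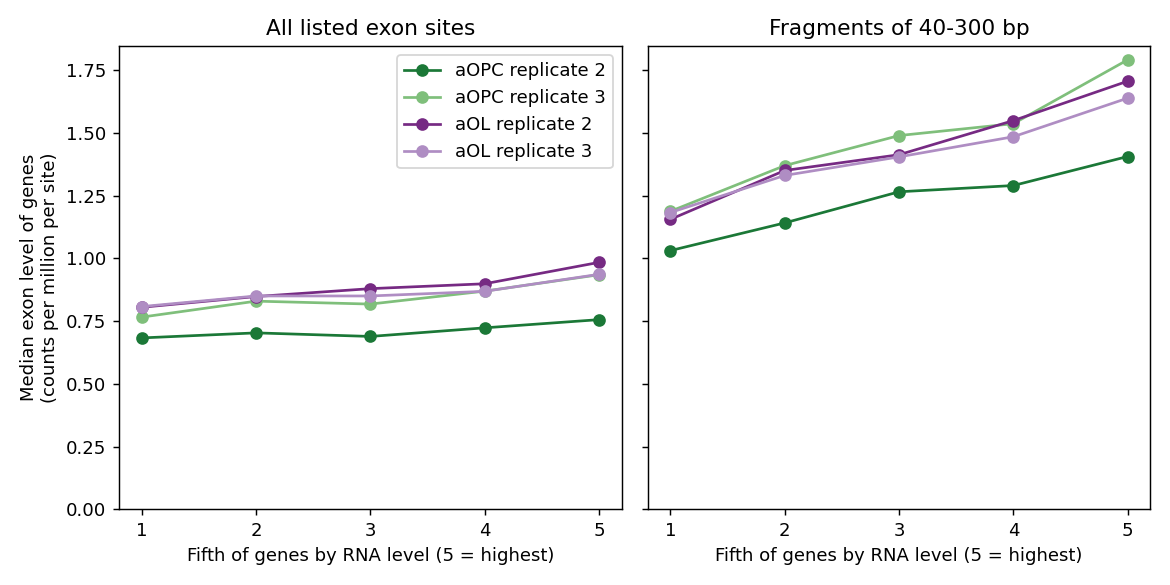
Median exon level of genes, in CPM per site, against the fifth of genes by RNA level in the same population, 1 line per RRHP library, for all listed exon sites (left) and for sites 40 to 300 bp from the next CCGG (right). Every line ends above its start, and in the right panel each line rises at every step and ends at 1.41 to 1.79, whereas in the left panel the aOPC lines dip from the second to the third step.

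Genes with high RNA differed widely in exon level, as 3 myelin-related genes and Cryab, named after their values were seen, show. Trf, which encodes the iron carrier transferrin, had the same log2 RNA value of 20.1 in aOPC replicate 2 and in both aOL libraries, and 19.6 in aOPC replicate 3. Its exon sites of 40 to 300 bp had 1.69, 2.58, 2.50 and 2.01 CPM. The RNA value of 20.1 was the highest aOL mean among genes with exon sites, and 19.6 recurs in other libraries in Mbp and Cnp. RNA libraries share nearly one distribution, so equal values need not mean equal RNA. Mag stood between 18.3 and 18.5 in RNA, with the exon levels given above. The RNA of Mog was 16.9 to 17.8 and its exons were below 1 CPM in 3 of 4 libraries. Cryab had RNA of 17.3 to 17.6 and the single strongly read exon site shown above.

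Between the populations, single exon sites were tested with edgeR's quasi-likelihood method on all sites. Of 40689 exon sites with enough reads, 391 (0.961%) were higher and 237 (0.582%) lower in aOL at an adjusted p under 0.05. Over all 443062 tested sites the shares were 1.21% higher and 1.08% lower, and the median log2 fold change of the tested exon sites was 0.0080. Replicates within a population weighed on the counts. Without aOPC replicate 3 the calls were 36 higher and 150 lower, and without aOL replicate 2 the higher calls were 248. DESeq2 called 164 higher and 215 lower.

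The higher calls were mostly at sites on long fragments. The next CCGG was more than 360 bp away at 353 of the 391 higher sites (90.3%) and at 1 of the 237 lower sites. Exon levels were highest at 81 to 200 bp and fell from there to 500 bp in all libraries, further in aOPC than in aOL. At 121 to 200 bp the exon level was 1.60 and 1.80 CPM in aOPC and 1.77 and 1.75 CPM in aOL. At 361 to 400 bp it was 0.189 and 0.157 CPM in aOPC against 0.562 and 0.461 CPM in aOL, a ratio of 2.96. The ratio was 8.44 at 401 to 500 bp and 2.16 above 500 bp. The share of tested exon sites called higher was 11.6% at 361 to 400 bp, 51.4% at 401 to 500 bp and 57.9% above 500 bp, against 0.0734% at 40 to 300 bp. Intron sites had a ratio of 2.85 at 361 to 400 bp, so the shift was not limited to exons. When only sites of 40 to 300 bp were fitted, 21 exon sites were higher and 183 lower of 34079, where all sites gave 0.0720% and 1.10%. Fragment length is a property of the library as well as of the genome, and its part in the higher calls was not tested beyond this refit.

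**Figure D4:**
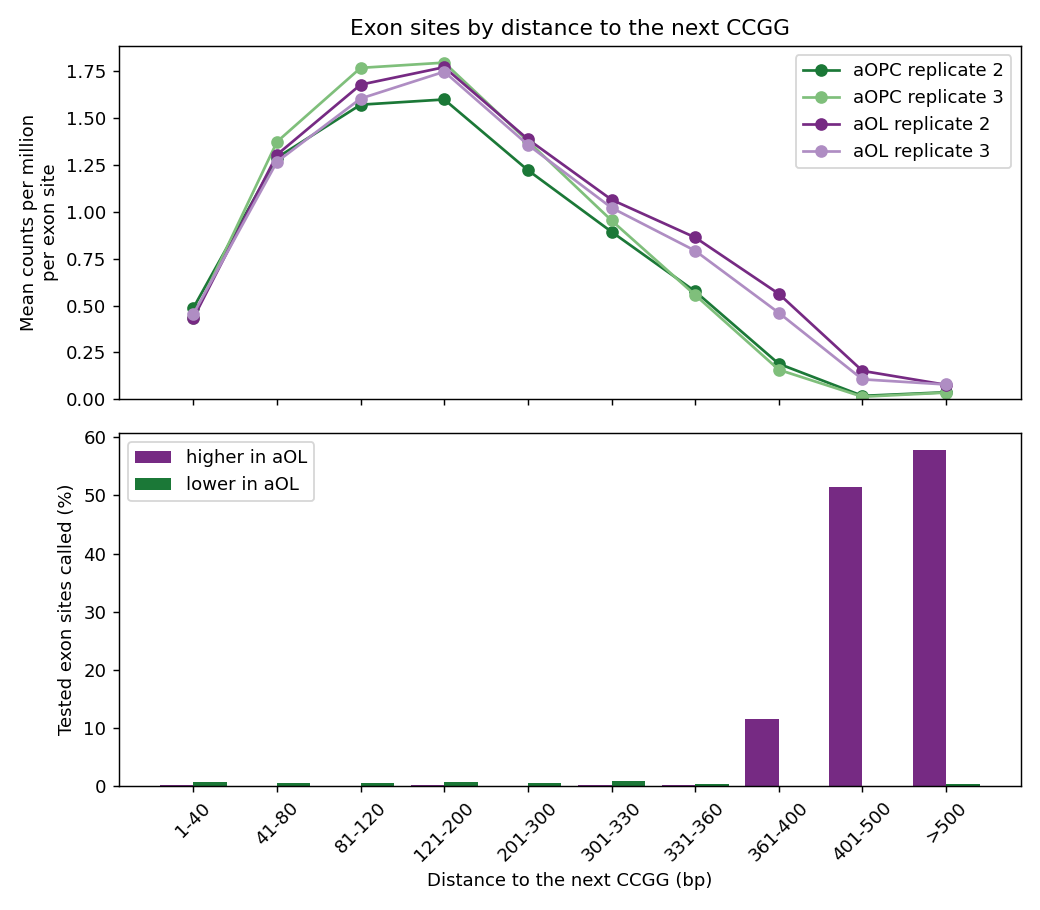
Exon sites by distance to the next CCGG in bp. Top, mean CPM per exon site in each of the 4 libraries, and bottom, percent of the tested exon sites called higher (purple) or lower (green) in aOL. The aOL lines lie above the aOPC lines from 301 bp on, and the calls that are higher in aOL concentrate above 360 bp.

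Most called exon sites were present in one population and nearly unread in the other. Of the 391 higher sites, 315 (80.6%) had at most 3 counts in both aOPC libraries, and 179 had none. Of the 237 lower sites, 186 (78.5%) had at most 3 counts in both aOL libraries, and 131 had none. A CCGG that is changed in the DNA of one reporter line gives no reads there whatever its 5hmC. The lines' own sequences were not analysed here, so the counts of a site alone cannot tell such a change from a loss of 5hmC. Among all called sites, the other strand of the CCGG was listed at 224 higher sites, with no count in either aOPC library at 39. It was listed at 121 lower sites, with no count in either aOL library at 37. Which called sites carry such a change was not tested. The other reads of a called site's fragment or CCGG were called in part. At the 203 lower sites of 40 to 300 bp, the other end of the same fragment was tested in 124 cases and was also called lower in 63 (50.8%), and the other strand of the same CCGG was also called in 19 of 57 (33.3%). At the 233 higher sites beyond 400 bp, the other end of the reference fragment was also called in 21 of 26 tested cases, and the other strand of the CCGG in 4 of 77. At the 25 higher sites of 40 to 300 bp the other end was called in 0 of 17 (edgeR) and the other strand in 1 of 9.

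The lower calls were crowded into parts of the genome. Of 489 windows of 5 Mb with a tested exon site, 14 held 121 of the 237 lower calls, and 34 held 196 of the 391 higher calls. In those 14 windows 6.92% of the tested sites of all other classes were also lower in aOL, against 0.876% elsewhere, and in the 34 windows 3.04% were higher, against 1.004%. Chromosome 8 had the most lower calls (38 of 2458 tested exon sites), followed by chromosomes 7 and 17 with 37 each, whereas chromosomes 5, 15 and 19 had none.

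**Figure D5:**
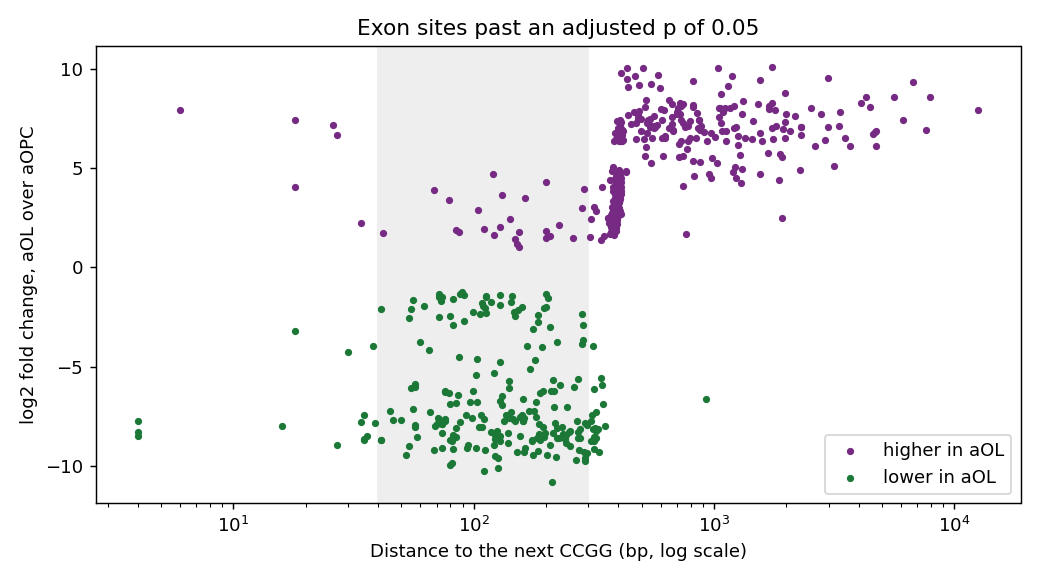
Log2 fold change of aOL over aOPC against the distance to the next CCGG (bp, log scale) for the 628 exon sites called between the populations, with the range of 40 to 300 bp shaded. Lower sites (green) fill the shaded range, many at a log2 fold change beyond -5, and 353 of the 391 higher sites (purple) lie beyond 360 bp, with 25 inside the shaded range.

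Nrm, a protein of the inner nuclear membrane, had a coding site with 71 and 176 counts in the aOPC libraries against 1 and 0 in aOL. The level in aOPC was 10.1 CPM ± 0.211, and aOL was within the limit of 3 counts (edgeR log2 fold change -8.45 ± 0.57, SE, adjusted p = 3.14e-06). Col11a1, a fibrillar collagen, kept some reads in aOL, with 61 and 179 counts against 4 and 6 and mean CPM 40.2-fold apart (9.52 CPM ± 1.33 and 0.236 CPM ± 0.0208, edgeR adjusted p = 3.42e-06). In Col11a1, as in Nrm, no aOL library reached an aOPC library, which their choice among the largest called differences made likely.

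The 10 largest of 17 lower sites with at least 50 counts in both aOPC libraries also included sites in Cys1, Ptpn14, Ly6g6e, Zbtb40, H2-K2, Ppp1r13b and Slc9a3r2. Cys1, a protein of primary cilia, had 120 and 154 counts in its 3′ UTR and none in aOL, at least 86.4-fold higher in aOPC when aOL is put at the mean of its 2 limits of 3 counts. Zbtb40 had 74 and 170 counts against 1 and 0 in its 3′ UTR. H2-K2 belongs to a family of near-identical histocompatibility genes, so its counts of 52 and 87 against 0 and 1 may be shared with copies. The aOPC libraries were on one side of the aOL libraries at each of these sites, which the choice of large called differences made likely.

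Haus8, a subunit of a complex that builds spindle microtubules, led the higher sites together with Ushbp1. Its site had 119 and 233 counts in the aOL libraries and none in aOPC (8.04 CPM ± 0.805, edgeR adjusted p = 8.63e-06), and aOL was at least 26.9-fold higher than the limit of detection in aOPC. The next CCGG in the reference lies 1041 bp away. Ubr4, a large ubiquitin ligase, had none against 108 and 144 counts, with the next CCGG at 468 bp. Chd9, a chromatin remodeller, had none against 97 and 133 at 436 bp, and Trim58, Abcc6, Uhrf1bp1, Pla2g7, Sipa1l2 and Cngb1 completed the 10 largest of 70 higher sites with at least 50 counts in both aOL libraries. Without aOPC replicate 3 the sites in Trim58 and Sipa1l2 lost their call (edgeR adjusted p = 0.0585 and 0.0546). All 10 were at 0 in both aOPC libraries and lay 409 bp or more from the next CCGG. Higher sites of 40 to 300 bp, also named after their values were seen, had smaller counts. Nosip, a regulator of nitric oxide synthase, had 1 and 1 counts against 19 and 46 (1.45 CPM ± 0.358 in aOL, edgeR adjusted p = 0.00765). Zfp839, a zinc finger gene, had 2 and 2 against 42 and 53.

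Summed over a gene's exon sites, 26 of 10397 genes (0.250%) were higher and 41 (0.394%) lower in aOL, against 0.192% and 0.408% of all sums of a gene in one class of sites. The 26 higher genes had a median of 3 exon sites, and in 20 of them over 50% of the counts came from fragments longer than 360 bp, which was so in none of the 41 lower genes. The count of calls changed with single libraries, in fits that leave a population with 1 sample assumed to vary like the other. It was 5 to 1728 higher and 8 to 235 lower when 1 library was left out, with the largest number without aOPC replicate 3, 6 and 10 without aOL replicate 2, 5 and 8 without aOL replicate 3, and 93 and 97 without aOPC replicate 2. A separate fit on sites read 3 or more times in each of the 4 libraries called 5 higher and 4 lower.

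The largest higher sums with at least 50 counts in both aOL libraries rested mostly on long fragments. Cacul1, a cullin-associated protein, had 2 and 1 counts in aOPC against 183 and 266 in aOL, all from fragments beyond 360 bp (edgeR log2 fold change 6.34 ± 0.55, SE, adjusted p = 1.17e-05). Kcnj11, a potassium channel subunit, had 1 and 1 against 100 and 160, also all from such fragments. Ap1m1, Leprotl1, 9230105E05Rik, Haus8, Rb1, Trim58, Slc28a1 and 2610005L07Rik completed the first 10, with log2 fold changes of 2.58 to 6.83. In Slc28a1, a nucleoside transporter, 48.5% of the counts came from fragments beyond 360 bp, and in the other 9 it was 80.4% or more. Dnahc8, an axonemal dynein heavy chain outside the first 10 and named after its values were seen, had 149 and 393 counts against 709 and 1321 over 27 sites, with 0.972% of them from these fragments (edgeR log2 fold change 1.13 ± 0.24, adjusted p = 0.0380).

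Among the lower sums with at least 50 counts in both aOPC libraries, Cys1, Ly6g6e, H2-K2 and Ppp1r13b came first and hold the single sites given above, and Slc39a7, a zinc transporter, and Pvrl4, a cell adhesion protein, followed with log2 fold changes of -2.75 and -2.02. Arnt2, a transcription factor of the bHLH-PAS family, had 81 and 196 counts in aOPC against 56 and 70 in aOL over 7 sites (edgeR log2 fold change -1.87 ± 0.30, adjusted p = 0.00486). Rasd2, a small GTPase, had 55 and 170 against 47 and 76 over 16 sites (edgeR log2 fold change -1.59 ± 0.33, adjusted p = 0.0359). With sites restricted to those read 3 or more times in each library, Arnt2 and Rasd2 turned to 0.053 and 0.12, 6 more of the 9 named sums that could be fitted lost their call (Haus8, Trim58, Slc39a7, Pvrl4, Enpep and Sgk1), and 1 was still called. Enpep, an aminopeptidase, had 81 and 202 counts against 47 and 99, and Sgk1, a kinase induced by glucocorticoids, 158 and 174 against 66 and 168, with a fold change of -1.51 (log2) in Sgk1. The raw counts of the populations overlapped in Rasd2, Enpep and Sgk1, and the fold changes are after scaling. Map2, a microtubule protein of the cytoskeletal list, had 6 and 30 counts against 0 and 0 over 2 sites. Of the called genes with an RNA value, RNA was higher in aOL in 8 and lower in 8 of 16 higher genes, and higher in 11 and lower in 13 of 24 lower genes.

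RNA was also compared between the populations. Of 11133 genes tested with limma, 1 (0.00898%) was higher and 8 (0.0719%) were lower in aOL, and 5 of these 9 had exon sites. Leaving out 1 library leaves its population with a single sample, which is then assumed to vary like the other population. The counts were 1906 and 1899 without aOPC replicate 2, 1102 and 872 without aOPC replicate 3, 27 and 87 without aOL replicate 2, 19 and 87 without aOL replicate 3, and were 0 and 0 by limma without a filter on low values. The exon sums of those 5 genes were not called (edgeR adjusted p from 0.850 to 0.894). Sbsn, a secreted epithelial protein, fell by 5.37 on the log2 scale, with RNA of 6.80 and 7.13 in aOPC and 1.57 and 1.63 in aOL, and had 44 and 167 exon counts against 112 and 182. Dusp26, a phosphatase, had RNA of 15.0 and 14.8 against 10.7 and 10.6 and exon counts of 63 and 111 against 137 and 203. Thbd, thrombomodulin of the vessel wall, had 10.2 and 9.77 against 5.60 and 5.42 and exon counts of 32 and 90 against 66 and 99, and Slc16a11, a monocarboxylate transporter, 7.10 and 6.50 against 1.57 and 1.63 with 33 and 72 against 99 and 135. The aOL values of 1.57 and 1.63 in Sbsn and Slc16a11 also recur in Pitx1, near the low end of the RNA scale. The size of both falls is thus uncertain. In all 4 named genes the RNA groups did not overlap, which their choice as called genes made likely. After scaling, the exon log2 fold change was -0.22 in Sbsn, -0.29 in Thbd, 0.15 in Dusp26 and 0.39 in Slc16a11, and none of the 4 passed the test.

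Across 6570 genes tested in both assays, the exon log2 fold change and the RNA log2 fold change had a Spearman correlation of 0.0309, and 55.2% had the same sign in both. Without replicate 2 of both assays the correlation was -0.0068, and without replicate 3 it was 0.0386, so its direction changed with replicate 2. The exon sum was higher in aOL in 78.3% of 263 genes whose RNA was higher at an unadjusted p under 0.01, in 65.8% of 190 genes whose RNA was lower, and in 68.4% of the other 6117 genes. The median exon log2 fold changes of these groups were 0.20, 0.15 and 0.15, while the median of all 10397 exon sums was 0.14.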

How the data were processed

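RRHP counts were deposited by the authors as raw read counts per CpG and strand on mm10, with their promoter, exon, intron and CpG island columns, and the aligner of the RRHP reads and any duplicate removal are not given in the sources used here. RNA reads were aligned with BWA by the authors, and RNA values were deposited as log2 expression per gene symbol, in which the libraries share nearly one distribution. They were thus tested with limma 3.58.1 in place of the count test planned, over genes that reached 5 (log2) in 2 libraries or more, called at p under 0.01 and adjusted p under 0.05. Missing RRHP sites were set to 0. Sites with at least 10 reads in 2 libraries were tested with edgeR 4.0.16 (TMM, quasi-likelihood, Benjamini-Hochberg over all features). Sums per gene and class were tested in the same way after edgeR's own filter on low counts (filterByExpr), and DESeq2 1.42.0 was an alternative. All positions lay at a CCGG of GRCm38, and RefSeq's GRCm38 sequence gave fragment lengths, as the distance to the next CCGG on the read side, and GC content. Fitting was tested on simulated counts. The range of 40 to 300 bp, the matching and the removal of Rn45s were chosen after seeing the data, and members and gene lists with earlier results of these data known. Named sites were the 10 largest changes each way among called sites with 50 reads in both libraries of the higher population, and genes followed the same rule, the highest levels, the most sites, the lists and the RNA calls. Chromosome 18 was counted and not named. Some genes that the rule names are not reported here. The study's methods call the RRHP replicates biological, but no label ties a library to its animals, so p-values measure the spread between these libraries. Python was 3.11.15.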

Additional observations from a re-analysis of the deposited data

How the results depend on the processing

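Limits: with 2 libraries per population the exact tests could not pass 0.05, leaving out 1 library leaves a lone sample assumed to vary like the other population, shallow aOPC replicate 2 leaves many sites near 0, and log2 RNA values carry no depth. Libraries with one replicate number come from different reporter lines, and their deviations had a correlation of -0.0380 at exon sites and -0.0739 in RNA. The main results thus do not use the replicate block, which is given below only as an alternative.

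Higher exon sites numbered 391. They were 164 with DESeq2, 15 with 10 reads in every library, 755 without a filter and 21 at 40 to 300 bp, and 36 to 489 when 1 library was left out. Lower sites numbered 237 and were 12 with 10 reads in every library, 543 without a filter and 150 to 248 with 1 library left out. With the replicate block there were 544 and 303. Of the 628 calls, 378 were called by DESeq2, 619 with library totals and 151 without aOPC replicate 3. Exon sums were 26 higher and 41 lower. Higher sums were 13 with library totals, 17 with the replicate block, 57 without a filter, 5 with 3 reads in every library, 6 at 40 to 300 bp and 5 to 1728 with 1 library left out, and lower sums 33 with the block, 4 with 3 reads in every library and 8 to 235 with 1 library left out. RNA calls (1 higher, 8 lower) were 0 and 0 by limma without a filter, 30 and 97 with the replicate block, and 19 to 1906 and 87 to 1899 with 1 library left out.

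The exon to intron log2 ratio of 0.24 reversed to -0.016 at 40 to 300 bp, -0.039 with matched fragment length and -0.027 at sites read in all 4 libraries. The correlation of exon and RNA level in aOPC (0.0413) became 0.142 with 5 or more sites, 0.0347 with RNA of at least 5, 0.134 at sites read in all 4 libraries, 0.154 at 40 to 300 bp, 0.234 with both, and 0.0372 to 0.0391 with 1 library. In aOL (0.0605) it became 0.150, 0.161, 0.167 and 0.226 under the same settings without the RNA minimum. The correlation of differences (0.0309) was 0.0681 with 5 or more sites and -0.0068 to 0.0386 with 1 library or replicate number left out, the lowest without replicate 2. Of 40 named sites and sums, 6 lost their call with library totals, 6 with the replicate block, 12 without aOL replicate 2 and 13 without aOL replicate 3, all of them sums, 2 (sites) without aOPC replicate 3 and none without aOPC replicate 2 or with DESeq2. The sums of Arnt2 and Rasd2 reversed to log2 fold changes of 0.053 and 0.12 with 3 reads in every library. Shares, mean levels and quintile ratios kept their direction under every setting tried.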
